A study of Homo sapiens with 6 samples.

Results

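The genes described here lie on the short arm of human chromosome 8 between TUSC3 and SLC25A37, from position 15417188 to 23575463 of GRCh38, a stretch of 8.158 Mb. They were chosen from measured values of the same contrast that is described below, since the stretch was picked out because its genes were lower in 1 rescue than in the other. The rule took every gene that starts in the stretch and averages 1 FPKM or more in the 6 libraries. FPKM counts sequenced fragments after scaling for transcript length and library size, so levels of different genes can be compared. It gave 33 of the 58288 genes of the table, and 12634 genes in all passed the same limit on level. Of the 33, 30 were protein coding, 2 were long noncoding RNAs and 1 was a U6 small nuclear RNA pseudogene. The rule left out 2 further genes of the stretch that passed the limit. These are SLC25A37, the mitochondrial iron importer mitoferrin-1, which was lower in every 2KR library, and 1 gene not reported here, which was higher in every 2KR library. Because the choice rests on this contrast, the differences of single members are given as a description without a test, and limma's calls among them appear only as a count beside the background.

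MYB is a transcription factor of blood progenitor cells whose activity is held down by SUMO, a small protein that is either coupled to MYB or bound by it. The study asked how the SUMO status of MYB changes the genes it controls in K562, an erythroleukemic line from a chronic myelogenous leukemia. In 1 group the cells stably expressed 3xFLAG-2KR-Myb-HA, which cannot be conjugated to SUMO (2KR-MYB), and in the other 3xFLAG-ANAA-Myb-HA, whose SUMO-interacting motif is mutated (ANAA-MYB). RNA was taken from 3 biological replicates per rescue. Both groups were K562 clones selected with 200 µg/ml G418, and both were transfected for 24 h with the siRNA si2992 against the untranslated end of endogenous MYB mRNA, which the introduced MYB lacks. Each mutant was represented by 1 clone, so the mutant and the clone cannot be told apart in any difference given below. Libraries of control, knockdown and other rescue cells were not analysed here.

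The stretch is not a functional unit. It holds genes for housekeeping complexes such as the CCR4-NOT deadenylase, which shortens mRNA tails, the Integrator complex, which processes small nuclear RNAs and acts on paused polymerase, and the ESCRT machinery, which cuts membrane necks. It also holds the genes for both death receptors of TRAIL, a ligand that triggers apoptosis through caspase-8. Its other genes serve lysosomes, zinc and iron transport, the centrosome and RNA polymerase III.

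Summed FPKM over all genes lay between 579920 and 601877 in the 2KR libraries and between 583555 and 633662 in the ANAA libraries. Read depth is unknown, because the table holds FPKM and no counts. MYB mRNA, which counts the introduced and the endogenous transcript together, was 69.0, 61.2 and 67.5 FPKM in the 2KR libraries and 53.6, 55.3 and 62.0 FPKM in the ANAA libraries. These groups overlap, and MYB was not past the threshold (log2 fold change 0.21, limma adjusted p = 0.062). Markers of the erythroid lineage were present in both rescues, with mean HBG2 at 835 FPKM in 2KR and 994 FPKM in ANAA, GATA1 at 78.2 and 107 FPKM and KLF1 at 19.2 and 30.7 FPKM. Of 10 markers of other cell types, the T cell gene CD3D (27.8 and 52.9 FPKM) and the epithelial genes EPCAM (49.4 and 44.5 FPKM) and KRT8 (304 and 288 FPKM) were well above 0 in both rescues. The other 7 had group means of at most 2.14 FPKM, with MS4A1 at 0. Several of these markers differed between the rescues, and their part in the results was not tested. These are bulk libraries, in which fewer cells of a kind and less RNA per cell cannot be told apart.

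Across the stretch, 32 of the 33 genes were lower in every 2KR library than in every ANAA library and 0 were higher. Such a complete separation downward was found for 24.8% of all tested genes, and upward for 20.1%. By limma at an adjusted p under 0.01, 25 members were lower in 2KR, against a background of 7.42% of tested genes lower and 5.57% higher. Nothing is read from these counts, because the contrast itself chose the stretch. Over the 32 genes without the U6 pseudogene, the median difference in mean log2(FPKM + 1) was -0.65, with a range of -1.15 to -0.10, where the median over all tested genes was -0.015. Expressed as levels, the 2KR mean was 61.4% of the ANAA mean at the median gene, the quartiles were 57.4% and 67.8%, and the extremes were 38.5% for ZDHHC2 and 93.1% for ATP6V1B2.

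**Figure D1:**
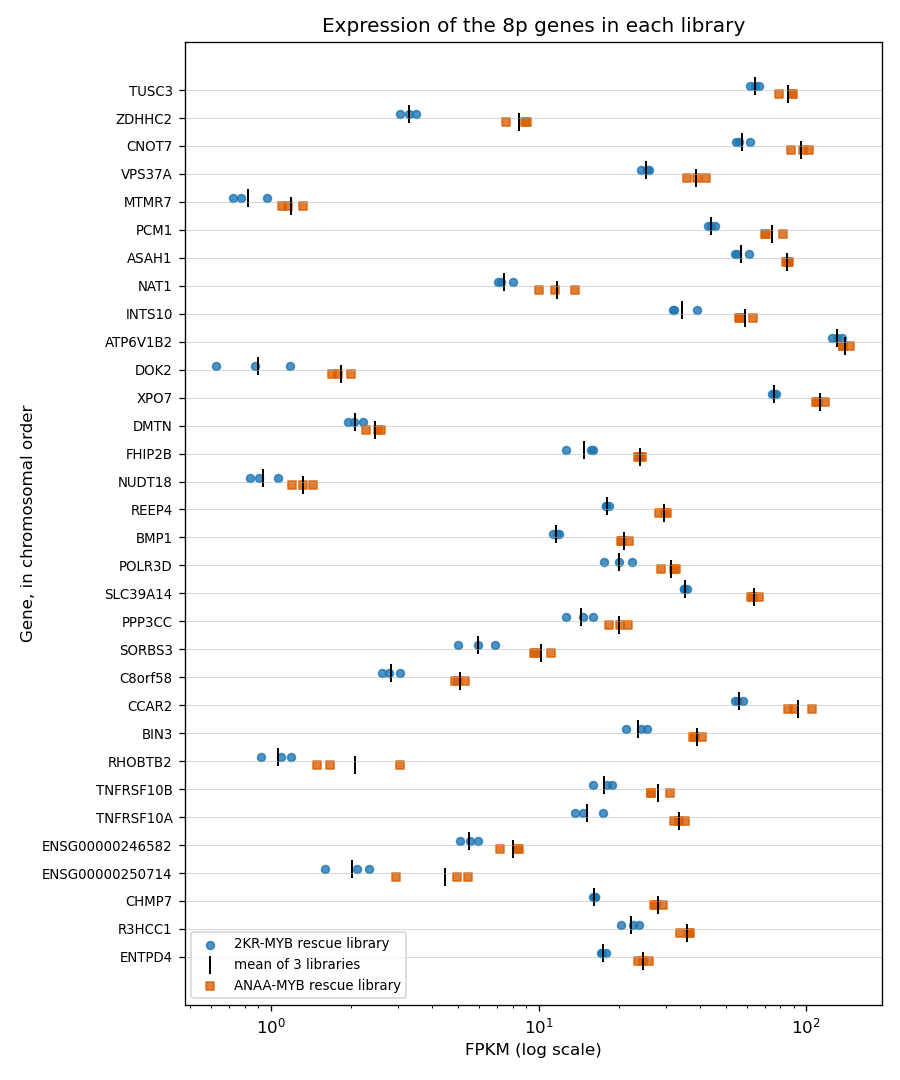
FPKM on a log axis for 32 genes of the stretch in chromosomal order, with circles for the 3 2KR-MYB libraries, squares for the 3 ANAA-MYB libraries and a bar at each mean. In each row the circles lie to the left of the squares, with the smallest gap at ATP6V1B2.

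The summed level of these 32 genes was 788, 819 and 803 FPKM in the 2KR libraries and 1174, 1218 and 1264 FPKM in the ANAA libraries. The means were 803 ± 15.1 and 1218 ± 45.2 (SD, n = 3 each), so that 2KR held 65.9% of the ANAA sum. No library stood apart within its rescue. Set against the mean of its own rescue, the median member deviated by between -0.0354 and 0.0619 on the log2 scale in the 6 libraries, whereas the distance between the rescues was -0.65. The highest of these was ANAA replicate 3, in which 25 of the 32 genes were above the mean of their rescue. The median SD between replicates was 0.0885 in 2KR and 0.0760 in ANAA for the members, close to 0.0786 and 0.0816 for all tested genes.

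The TRAIL receptors were TNFRSF10B, also called DR5, at 23020133 to 23069031 and TNFRSF10A, also called DR4, at 23190452 to 23225102. TNFRSF10A was 14.6, 17.4 and 13.7 FPKM in the 2KR libraries and 33.3, 31.9 and 35.4 FPKM in the ANAA libraries. Its 2KR level was 45.4% of the ANAA level and its log2 difference was -1.10 ± 0.106 (SE), the largest among the members over 10 FPKM. TNFRSF10B, which binds the same ligand, was 18.8, 18.02 and 16.0 FPKM against 26.3, 26.4 and 30.9 FPKM, or 63.2%. In the ANAA libraries TNFRSF10A was the more abundant of the pair, whereas in the 2KR libraries TNFRSF10B had the higher mean, with 17.6 ± 1.46 against 15.2 ± 1.93 FPKM (SD, n = 3), and the libraries of the pair overlapped there. Both rows annotated as TNFRSF10A-DT, noncoding transcripts divergent from TNFRSF10A, were low. ENSG00000246582 averaged 5.52 FPKM in 2KR and 8.01 FPKM in ANAA, and ENSG00000250714 averaged 2.01 and 4.46 FPKM.

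The genes of transcription and RNA handling were among the most abundant and had some of the most even ratios, from 58.4% to 67.5%. CNOT7 (17224966 to 17246857), a catalytic deadenylase of CCR4-NOT, was 54.8, 56.3 and 61.7 FPKM in 2KR and 88.0, 97.5 and 102 FPKM in ANAA, or 60.1%. INTS10 (19817416 to 19852067), an Integrator subunit, was 32.0, 31.9 and 39.0 FPKM against 56.3, 56.7 and 63.4 FPKM, or 58.4%. CCAR2 (22604757 to 22621514), a nuclear regulator of the deacetylase SIRT1, was 54.3, 57.9 and 55.8 FPKM against 85.4, 104.8 and 90.3 FPKM, or 59.9%. In each of these 3 genes the gap between the groups was wider than the range within the 2KR group. XPO7 (21919662 to 22006585), a nuclear transport receptor known from erythroid enucleation, was 74.2, 75.8 and 77.1 FPKM against 108.4, 117.3 and 110.8 FPKM. POLR3D (22245133 to 22254601), a subunit of RNA polymerase III, was 17.5, 22.4 and 19.9 FPKM against 28.7, 32.1 and 32.7 FPKM. Their ratios were 67.5% and 64.0%.

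The group of endosome, lysosome and membrane traffic was the largest, with 10 genes at a median of 63.1%, and held both extremes of the stretch. ZDHHC2 (17156482 to 17224799), a palmitoyltransferase that adds a fatty acid to membrane proteins, was 3.30, 3.05 and 3.47 FPKM in 2KR and 8.91, 7.53 and 9.03 FPKM in ANAA. Its log2 difference of -1.15 ± 0.086 was the largest of the 32, at a ratio of 38.5%. Its start is less than 0.1 Mb from that of CNOT7, which stood at 60.1%. ATP6V1B2 (20197381 to 20221696), a catalytic-head subunit of the proton pump that acidifies lysosomes, was 130.5, 135.7 and 124.4 FPKM in 2KR and 136.6, 137.0 and 146.0 FPKM in ANAA. The highest 2KR library and the lowest ANAA library nearly touched, and the ratio was 93.1%. It was also the most abundant of the 32.

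Between those extremes, ASAH1 (18055992 to 18084961), the lysosomal acid ceramidase, was 55.3, 54.3 and 61.3 FPKM against 83.6, 85.4 and 86.0 FPKM, or 67.0%. The ESCRT genes were VPS37A (17246958 to 17333455), of ESCRT-I, and CHMP7 (23243637 to 23261999), which recruits ESCRT-III to the nuclear envelope. VPS37A was 24.2, 25.3 and 25.8 FPKM against 38.9, 35.7 and 42.1 FPKM, and CHMP7 was 15.9, 16.2 and 16.2 FPKM against 27.4, 27.0 and 29.2 FPKM. CHMP7 was very even between replicates, with an SD of 0.174 FPKM in 2KR. REEP4 (22138020 to 22141907), which shapes the endoplasmic reticulum, was 18.3, 17.8 and 17.8 FPKM against 30.3, 28.2 and 29.6 FPKM. FHIP2B (22089150 to 22104911), of a family of adaptors for motor proteins, was 15.7, 16.0 and 12.6 FPKM against 23.6, 23.9 and 24.3 FPKM. BIN3 (22620418 to 22669121), a membrane-bending BAR-domain protein, was 21.2, 25.3 and 24.2 FPKM against 38.6, 37.7 and 40.8 FPKM. ENTPD4 (23429162 to 23457647), a nucleotidase of the Golgi, was 17.2, 17.9 and 17.1 FPKM against 25.9, 24.5 and 23.5 FPKM. Across these 7 genes, ASAH1 included, the ratio ran from 57.8% for CHMP7 to 70.6% for ENTPD4. MTMR7, a phosphoinositide phosphatase, lay just inside the level limit with a mean of 0.821 FPKM in 2KR and 1.19 FPKM in ANAA, and its body overlaps that of VPS37A over 36662 bases.

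SLC39A14 (22367278 to 22434129), a plasma membrane importer of zinc, iron and manganese, was 35.0, 35.1 and 35.8 FPKM in 2KR and 62.0, 63.1 and 66.8 FPKM in ANAA. The 3 values of each rescue lay close together, and the ratio was 55.2%. SLC25A37, which brings iron into mitochondria for heme synthesis and stands at the end of the stretch outside the member list, was 45.7, 45.1 and 46.9 FPKM against 74.2, 75.8 and 73.1 FPKM, or 61.7%. NAT1, an arylamine acetyltransferase, averaged 7.45 ± 0.529 FPKM in 2KR and 11.7 ± 1.84 FPKM in ANAA, and NUDT18, a nucleotide hydrolase, averaged 0.936 and 1.32 FPKM.

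PCM1 (17922988 to 18029948), the scaffold of the centriolar satellites that surround the centrosome, was 43.9, 43.1 and 45.7 FPKM against 70.03, 70.6 and 81.9 FPKM, or 59.7%. SORBS3, the focal adhesion adaptor vinexin, averaged 5.95 ± 0.933 and 10.2 ± 0.836 FPKM. DMTN, the dematin of the red cell membrane skeleton, was unlike its neighbours in size, with 2.04, 1.95 and 2.21 FPKM against 2.52, 2.57 and 2.27 FPKM. Its ratio was 84.2%, and the groups separated narrowly.

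TUSC3 (15417188 to 15852091), a subunit of the oligosaccharyltransferase that attaches sugars to new proteins, stands alone at the start of the stretch. It was 64.5, 66.8 and 61.5 FPKM in 2KR and 78.8, 89.4 and 88.3 FPKM in ANAA, or 75.2%. BMP1 (22165372 to 22212326), the protease that trims procollagen, was 11.9, 11.7 and 11.3 FPKM against 21.7, 20.4 and 20.4 FPKM, or 55.9%.

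PPP3CC (22441078 to 22541125), a catalytic subunit of the phosphatase calcineurin, was 14.6, 15.9 and 12.7 FPKM against 18.4, 20.1 and 21.7 FPKM, or 71.8%. The other signalling genes were near the limit on level of 1 FPKM. DOK2, an adaptor below tyrosine kinase receptors, was 0.626, 0.874 and 1.18 FPKM against 2.00, 1.79 and 1.70 FPKM. RHOBTB2, an atypical small GTPase, averaged 1.07 and 2.07 FPKM, the latter raised by 3.05 FPKM in ANAA replicate 1. DOK2, MTMR7 and NUDT18 had 2KR means under 1 FPKM and passed the limit on level only through the ANAA libraries, so a lower 2KR value was built into their inclusion. They remain in every count and median given over the 32 genes. The 21 members with a mean of at least 10 FPKM do not include them and had a median log2 difference of -0.67. R3HCC1 (23288092 to 23296279), whose role is less well known, was 20.4, 23.7 and 22.5 FPKM against 33.8, 36.5 and 36.9 FPKM, or 62.2%. C8orf58 averaged 2.80 and 5.08 FPKM.

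The exception among the 33 was the pseudogene RNU6-892P (20229779 to 20229877). It was listed at 3705 FPKM in ANAA replicate 1 and at 0 in the other 5 libraries. A transcript this short receives a very large FPKM from few fragments, and the row was left out of the medians and sums above.

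The ratios of the more abundant genes lay close together. For the 21 members with a mean of at least 10 FPKM the median was 61.6%, with quartiles of 59.7% and 67.0%, and 16 of the 21 lay between 55% and 70%. The 11 members under 10 FPKM were more scattered, with a median of 58.4% and a range of 38.5% to 84.2%. Across the 32 genes, the Spearman rank correlation of level against ratio was 0.188, a description over genes that share the same 6 libraries. Role by role, the median ratio was 54.3% for the TRAIL receptors (2 genes), 51.6% for signalling (3), 59.7% for centrosome and cytoskeleton (3) and 60.1% for transcription and RNA (5). It was 63.1% for endosome, lysosome and membrane traffic (10), 63.4% for transport and metabolism (3) and 65.5% for glycosylation and extracellular matrix (2). The signalling median is the ratio of RHOBTB2, which averaged 1.57 FPKM. DOK2 stood at 48.95% with a mean of 1.36 FPKM, and PPP3CC at 71.8% with 17.2 FPKM.

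**Figure D2:**
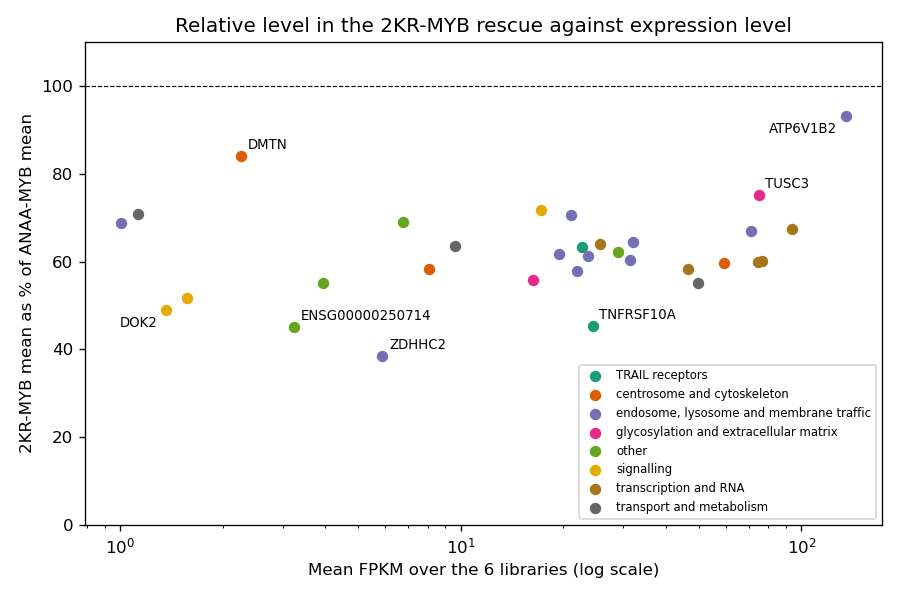
The 2KR-MYB mean as a percentage of the ANAA-MYB mean for 32 genes of the stretch, against mean FPKM on a log axis, coloured by role, with equality as a dashed line. Most genes over 10 FPKM lie between 55% and 70%, with ATP6V1B2, TUSC3, PPP3CC and ENTPD4 above that band and TNFRSF10A below it, and the genes at lower levels are spread more widely.

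By position, the members fell into 4 groups separated by more than 1 Mb without a member. TUSC3 formed the first, at 75.2%. The second ran from ZDHHC2 to NAT1, with 7 genes at a median of 63.4% and a range of 38.5% to 68.9%. The third held INTS10 at 58.4% and ATP6V1B2 at 93.1%. The fourth ran from DOK2 to ENTPD4, with 22 genes at a median of 60.8% and a range of 45.1% to 84.2%. The Spearman rank correlation of position against ratio was -0.196 over the 32 genes, again as a description.

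**Figure D3:**
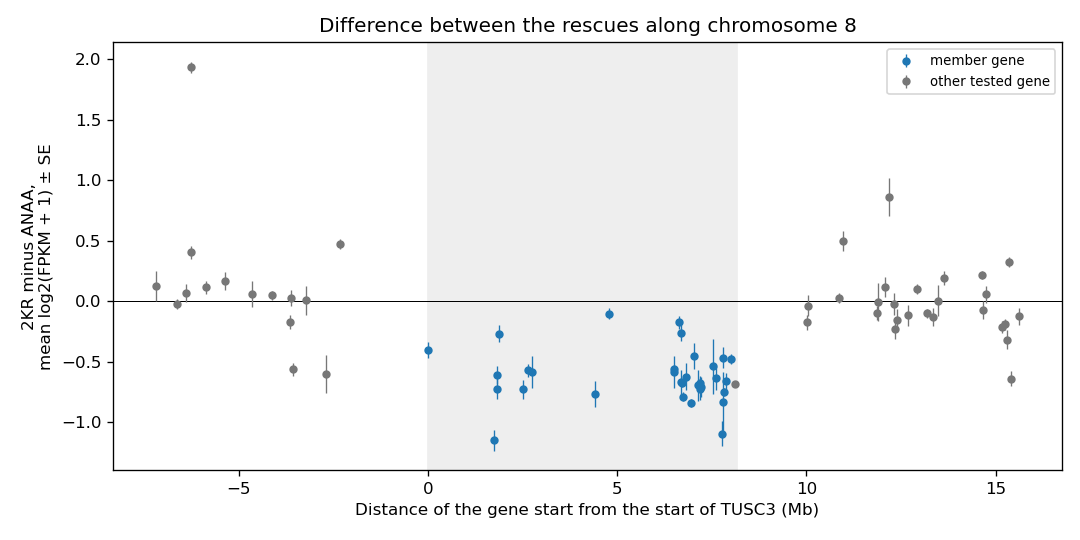
Difference in mean log2(FPKM + 1), 2KR minus ANAA, with its SE for tested genes on chromosome 8, against distance of the gene start from the start of TUSC3 in Mb, with the stretch shaded and members in blue. RNU6-892P and 1 gene not reported here are not drawn; the grey point inside the shading is SLC25A37, and the genes on either side scatter around 0.

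The nearest tested genes outside the stretch were not uniformly lower. Before it, DLC1, a GTPase-activating protein 2.334 Mb away, averaged 3.26 ± 0.206 FPKM in 2KR and 2.06 ± 0.0152 FPKM in ANAA and was higher in every 2KR library. Next to it, LONRF1 at 2.695 Mb was lower in every 2KR library, with 2.80 ± 0.639 and 4.72 ± 0.418 FPKM. FAM86B1 at 3.235 Mb stood at 101.2%. CTSB, the lysosomal protease cathepsin B at 3.575 Mb, was again lower, with 112.3, 107.4 and 106.2 FPKM against 167.1, 165.2 and 150.9 FPKM, or 67.4%, which is inside the range of the members. Beyond the other end, KCTD9 at 1.852 Mb stood at 88.1%, CDCA2 at 1.883 Mb at 97.0% and PPP2R2A at 2.716 Mb at 101.8%. BNIP3L, the mitophagy receptor that clears mitochondria from maturing red cells, at 2.808 Mb, was higher in every 2KR library, with 34.2, 36.0 and 38.9 FPKM against 26.4, 26.7 and 23.1 FPKM.

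Over 8 Mb before the stretch, 16 tested genes had a median log2 difference of 0.054, with 4 lower and 6 higher in every 2KR library. Over 8 Mb after it, 26 genes had a median of -0.054, with 8 lower and 6 higher. Across the 349 tested genes of chromosome 8 outside the stretch the median was -0.0069, and limma called 30 lower and 30 higher in 2KR. Of all tested genes, 24.8% were lower and 20.1% higher in every 2KR library. Limma called 7.42% of all tested genes lower and 5.57% higher.

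Below the level limit lay 58 further rows of the stretch, of which 24 were at 0 in every library. Of these rows 27 were protein coding, and 20 of the 27 averaged under 0.3 FPKM. MICU3, a regulator of the mitochondrial calcium channel, was just outside the limit with 0.363, 0.645 and 0.546 FPKM in 2KR and 1.21, 0.793 and 0.597 FPKM in ANAA, and its groups overlapped. NPM2, a histone chaperone of the egg, was 0.246, 0.623 and 0.645 FPKM against 1.13, 0.501 and 0.587 FPKM and also overlapped. PIWIL2, a germline piRNA-binding protein, went the other way, with 0.495, 0.873 and 0.760 FPKM in 2KR and 0.332, 0.349 and 0.314 FPKM in ANAA. It is named because its direction was seen to differ, and at such levels single fragments weigh heavily.

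A separate question is whether the partners of these genes, encoded elsewhere, differed as well. Partner genes played no part in the choice of the stretch, so limma was used to test them within the fit of all 12634 genes. Of 155 tested genes in 12 complexes and pathways, 9 were lower in 2KR (5.81%) and 6 higher (3.87%), against the 7.42% and 5.57% of all tested genes, and their median log2 fold change was 0.0009. The lists were drawn up with earlier results of these data known.

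**Figure D4:**
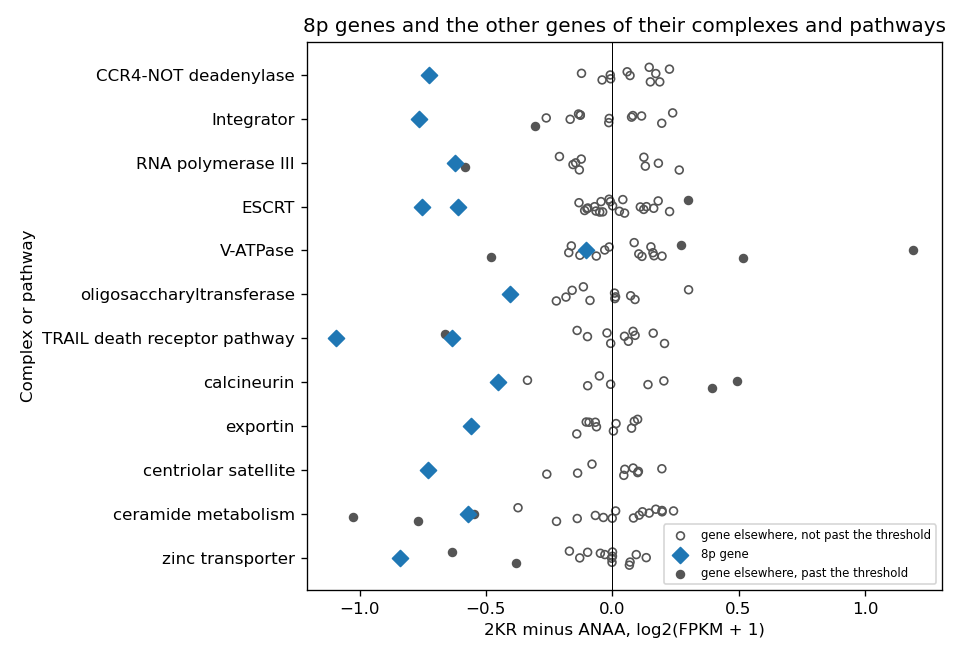
Difference between the rescues, 2KR minus ANAA in log2(FPKM + 1), for genes of the stretch (diamonds) and for the genes of the same complex or pathway encoded elsewhere (circles, filled where limma's adjusted p was under 0.01). In most lists the diamonds lie to the left of the circles. In the V-ATPase list ATP6V1B2 lies among them. In ceramide metabolism ASAH1 lies to the right of CERS1 and SPHK1, and in the TRAIL list TNFRSF10B lies just to the right of CFLAR.

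For the RNA complexes, 0 of 11 other CCR4-NOT genes were called by limma in either direction (5 had an unadjusted p under 0.05), with a median log2 fold change of 0.070 and a range of -0.12 to 0.23, where CNOT7 itself differed by -0.72. Of 13 other Integrator genes, INTS7 was lower, with 31.4 ± 1.17 against 39.0 ± 1.05 FPKM (log2 fold change -0.30, limma adjusted p = 0.0033), and the median was -0.014. Of 10 other RNA polymerase III genes, POLR3G, a subunit of the form found in stem and tumour cells, was lower, with 23.1, 23.7 and 23.7 FPKM against 32.0, 36.1 and 39.5 FPKM (log2 fold change -0.58, limma adjusted p = 0.0011). Among 10 other exportins and genes of their Ran cycle limma called 0, with 1 at an unadjusted p under 0.05.

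For membranes and lysosomes, 22 other ESCRT genes had a median of -0.003, and CHMP1B alone was called, upward, with 16.6 ± 0.466 against 13.3 ± 0.397 FPKM (log2 fold change 0.30, limma adjusted p = 0.0047). The V-ATPase, whose subunit ATP6V1B2 was the least different member, had calls in both directions among 17 other genes. The shares were 5.88% lower and 17.6% higher, against 7.42% and 5.57% of all tested genes. ATP6V1H, which also lies on chromosome 8 but outside the stretch, was 42.7, 42.1 and 40.4 FPKM in 2KR and 27.7, 29.2 and 29.8 FPKM in ANAA (log2 fold change 0.52, limma adjusted p = 0.00033). ATP6V0E2 was higher by 1.19 (limma adjusted p = 0.00062), with 17.5 ± 2.26 against 7.14 ± 1.46 FPKM. ATP6AP1, an assembly factor of the pump, was lower by contrast, with 62.0 ± 1.84 against 86.9 ± 2.30 FPKM (limma adjusted p = 0.00031). ATP6V0D1 was also higher, by a log2 fold change of 0.27 (adjusted p = 0.0095 by limma), but this call was lost without any library except ANAA replicate 1 (adjusted p 0.027 to 0.037), with no filter on level and with a replicate block (0.016 each).

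In ceramide metabolism, 3 of 18 genes beside ASAH1 were lower (16.7%, against 7.42% of all tested genes) and 0 higher, with a list median of 0.0066. CERS1, a ceramide synthase, was 0.671, 0.499 and 0.600 FPKM against 2.13, 2.182 and 2.40 FPKM (log2 fold change -1.03, limma adjusted p = 0.00038). CERS1 passed the limit on level only through the ANAA libraries, so it would not have been tested at its 2KR level, and its fold change became -1.76 and -1.91 with pseudocounts of 0.1 and 0.01. SPHK1, which phosphorylates the sphingosine that ceramidase releases, was 18.5, 20.1 and 16.3 FPKM against 31.6, 30.1 and 33.8 FPKM (log2 fold change -0.77, limma adjusted p = 0.00045). The other 15 genes of the list were not past the threshold.

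In the TRAIL pathway, CFLAR was the 1 call among 11 genes. It encodes c-FLIP, the decoy that blocks caspase-8 at the receptor, and was 13.6, 11.8 and 13.8 FPKM in 2KR and 19.8, 21.0 and 22.9 FPKM in ANAA (log2 fold change -0.66, limma adjusted p = 0.00077). Both receptors and this inhibitor were thus lower in the 2KR libraries, while the remaining 10 genes of the list were not past the threshold. Around calcineurin, 2 of 8 genes were called and both were higher. They were RCAN1, its inhibitor and transcriptional target, with 13.5 ± 0.747 against 9.30 ± 0.617 FPKM (log2 fold change 0.49, limma adjusted p = 0.0017), and NFATC2, a transcription factor it activates, with 5.13, 4.79 and 5.08 FPKM against 3.81, 3.50 and 3.37 FPKM (log2 fold change 0.40, limma adjusted p = 0.0065).

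Of 15 other zinc transporters, SLC39A4 and SLC39A1 were lower (13.3%, against 7.42% of all tested genes). SLC39A4, on the long arm of chromosome 8, was 20.3, 20.7 and 15.4 FPKM against 29.6, 29.6 and 29.2 FPKM (log2 fold change -0.63, limma adjusted p = 0.0032), and SLC39A1 was 61.6 ± 2.47 against 80.5 ± 3.40 FPKM (log2 fold change -0.38, limma adjusted p = 0.0015). Limma called 0 of 11 other oligosaccharyltransferase genes and 0 of 9 other centriolar satellite genes, with medians of 0.0091 and 0.050, and 4 and 2 of them had an unadjusted p under 0.05.

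The calls on CHMP1B and NFATC2 were lost in each fit without 1 of the 6 libraries, with adjusted p from 0.011 to 0.023 and from 0.013 to 0.028, and with a replicate block. With no filter on level CHMP1B was lost as well (adjusted p = 0.019). INTS7 was lost without any library except 2KR replicate 3 (adjusted p 0.011 to 0.016), and SLC39A4 without any of the ANAA libraries (adjusted p = 0.014 each), all by limma.

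Closest in sequence and function are the paralogues encoded on other chromosomes or outside the stretch. Of 19 tested for 17 members, 1 was lower and 1 higher, where 7.42% and 5.57% of all tested genes were. The median log2 fold change of the 19 was -0.0035. CNOT8, which takes the same place in CCR4-NOT as CNOT7, was 31.7 FPKM in 2KR and 32.7 FPKM in ANAA (log2 fold change -0.04, limma adjusted p = 0.64). CCAR1 was 91.5 ± 2.25 and 92.4 ± 2.82 FPKM (limma adjusted p = 0.85), and SLC39A8 was 23.8 and 23.7 FPKM (limma adjusted p = 0.99). These 3 pairs thus had partners near equality where the gene of the stretch was at 55.2% to 60.1%. Of the paralogues of PPP3CC, PPP3CB differed by -0.05 and PPP3CA by 0.20 on the log2 scale, and of those of VPS37A, VPS37B differed by -0.01 and VPS37C by 0.11, all short of the threshold (limma adjusted p = 0.51, 0.37, 0.89 and 0.33). MAGT1, which can replace TUSC3 in the oligosaccharyltransferase, was 37.7 FPKM in 2KR and 30.3 FPKM in ANAA, but this was not past the threshold (log2 fold change 0.30, limma adjusted p = 0.027). ZDHHC20 was also higher without passing it, with 24.0 against 19.4 FPKM (limma adjusted p = 0.020). DOK1 was lower, with 10.8 ± 0.464 against 14.9 ± 0.494 FPKM (log2 fold change -0.43, limma adjusted p = 0.0014).

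A few neighbours overlap on the chromosome, and whether strand was used in the counting is not given in the sources used here. Beside VPS37A and MTMR7, CCAR2 and BIN3 share 1097 bases, and RHOBTB2 and TNFRSF10B share 67 bases. Reads over these bases may have been divided between the genes.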

How the data were processed

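RNA of K562 cells was sequenced by the authors from poly(A)-selected, strand-specific TruSeq libraries with 150 bp paired-end reads. Per the submitters' processing notes, bcl2fastq 2.18.0.12, Trimmomatic 0.36, TopHat2 2.1.1, Cufflinks and Cuffdiff 2.2.1 were used with GRCh38. For the annotation and the scaling between libraries, the sources used here give nothing. The deposited values are FPKM per gene and replicate, so depth is unknown and p-values rest on the spread between 3 replicates. Of the table, 12 further columns of per-sample values match no sample analysed here and were not used. Groups were taken from the sample titles.

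Genes averaging 1 FPKM or more were kept (12634), log2(FPKM + 1) was taken, and the rescues were compared with limma 3.58.1 in R 4.3.3 (trended empirical Bayes, Benjamini-Hochberg adjusted p under 0.01). Fold changes on this scale understate the change of genes at low levels. RefSeq GRCh38.p14 positions were matched by gene ID or symbol, and 1007 tested genes had none. The members, partner lists and tests were chosen with earlier results of these data known. Values in every library are given for members of at least 10 FPKM, the 5 largest differences and genes at the limits, and at most 3 called partners per list are named with values; some genes this rule selects are not reported here. The fit was tested on simulated data for 12634 genes, in which 85% of changes of 1 and 29% of changes of 0.5 on the log2 scale were recovered, with 2 false calls of 116. Far fewer genes were changed in the simulation than were called in the data (938 lower and 704 higher). The recovered shares therefore need not hold for the data. Alternatives were other pseudocounts, filters, scalings, thresholds, a robust prior, a replicate block and leaving out each library.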

Additional observations from a re-analysis of the deposited data

How the results depend on the processing

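No member's difference rose above 0 under any alternative run. The median over the 32 members (-0.65) became -0.70 with a pseudocount of 0.1 and -0.71 with 0.01. It ranged from -0.69 to -0.63 when a library was left out. In these runs the count of 32 members lower in every 2KR library, and the sign of their differences, could not change. Neither a pseudocount nor leaving out a library can undo a complete separation. Upper quartile scaling left 30 such members, with ATP6V1B2 and DMTN overlapping, and quantile normalization 31, with ATP6V1B2 overlapping. Over all tested genes, 938 were called lower and 704 higher. Upper quartile scaling turned this split to 792 and 949, quantile normalization to 861 and 849, and a threshold of 0.05 to 1880 and 1522. Leaving out a library gave 506 to 682 lower and 314 to 457 higher. Called partners (9 lower, 6 higher) became 9 and 9 with upper quartile scaling and also with quantile normalization. They became 19 and 15 at a threshold of 0.05, and 7 to 9 and 3 to 4 without a library. Upward calls among paralogues (1) became 4 at 0.05 and 0 to 2 without a library, and 1 paralogue stayed lower in each such fit.

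With a replicate block, 678 genes were called lower and 411 higher, and 3 partners were higher; CHMP1B, ATP6V0D1 and NFATC2 lost their calls (limma adjusted p = 0.012, 0.016 and 0.019). With no filter on level, 4 partners were higher, and CHMP1B and ATP6V0D1 lost theirs (0.019 and 0.016). The numbers do not pair the samples, since deviations of same-numbered libraries correlated at -0.0523, -0.0353 and -0.00258. FPKM without counts leaves the precision of the genes under 10 FPKM unknown.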
